A study of Homo sapiens with 24 samples.

Results

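Human keratinocytes in which the polyamine enzyme AMD1 was inhibited while spermidine and spermine were supplied were compared with untreated keratinocytes of the same differentiation day. The comparison took all 4 arrays of EGBG plus spermidine/spermine and all 4 arrays of untreated day 6 cells, 8 of the 24 arrays of the series. Probes with a detection p under 0.01 on at least 4 of these 8 arrays were tested. This left 11216 of 47304 probes, of which 8970 carried a single gene symbol and stood for 7411 genes, each represented by its brightest probe.

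All cells were N/TERT1, an immortalized human keratinocyte line, so every group stands for a single line. Both groups were switched at high confluence from 0.3 mM to 1.2 mM calcium, which induces differentiation, and harvested on day 6. Untreated day 6 cells received no compound. The other cells received 50 µM EGBG together with 1 mM spermidine/spermine (SDSM) on day 3, and the labels do not settle whether 1 mM is the dose of each polyamine or of both together. Cells given 50 µM EGBG alone, SDSM alone or 1 mM putrescine alone on day 3, 4 arrays each, serve below for reference. The labels number the arrays as replicates and do not say whether each is its own culture; the spread behind each p-value is that of these samples and may be technical.

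Polyamines are small positively charged amines that bind nucleic acids and serve translation. ODC1 makes putrescine from ornithine, and AMD1 makes the decarboxylated S-adenosylmethionine whose aminopropyl group the synthases SRM and SMS add to form spermidine and spermine. EGBG, an inhibitor of AMD1, blocks that supply, and added spermidine and spermine enter below the block. In differentiating epidermis, keratinocytes replace basal by spinous keratins, then cross-link small proline-rich and late cornified envelope proteins into a tough shell, sealed by lipids and trimmed by proteases.

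Each array of the combination detected 10348 to 11052 probes and each untreated array 11019 to 12396, with mean intensities of 345 to 528 and 437 to 609. Across tested probes, which are not independent replicates, combination arrays correlated with untreated arrays at r of 0.920 to 0.978, with SDSM arrays at 0.962 to 0.990 and with EGBG arrays at 0.843 to 0.897. Untreated replicates 2 and 4 correlated at 0.986, and the 5 pairs that hold replicate 1 or 3, the pair of both included, at 0.957 to 0.965. Counts without replicates 1 and 3 are therefore given beside the main ones, a choice made after seeing the data. Of the 10 keratinocyte markers 9 were on the array, and all 9 were detected on all 8 arrays. Their summed intensity was 77860 to 148100 in untreated cells and 71460 to 89290 in the combination. Of 8 melanocyte markers PMEL alone was detected on all 8 arrays (MLANA, TYR and SOX10 on 0), with the list's sum at 574.3 to 623 untreated and 689.5 to 836.3 in the combination, a rise whose part in the results was not tested. Likewise, of 11 fibroblast markers COL1A1, VIM and ACTA2 were detected throughout and COL1A2, COL3A1 and PDGFRA on 0 arrays, with sums of 1062 to 1734 and 1245 to 1461. Of 12 immune markers CD68, CD207 and HLA-DRA were detected on all 8 arrays, and CD14 on 4 untreated arrays and 1 of the combination. ITGAM was detected on 0 untreated and 2 combination arrays, LYZ on 0 and 1, and FCGR3A on 1 and 1. PTPRC, the pan-leukocyte marker, CD3E and MS4A1 were detected on 0. The summed immune markers were 4867 to 5782 untreated and 4103 to 5692 in the combination.

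The combination was not at the untreated level for every gene. Of the tested probes, 2020 (18%) passed an adjusted p of 0.05 in limma with Benjamini-Hochberg adjustment, 1117 higher (9.96%) and 903 lower (8.05%). Over 2-fold, 276 probes (2.46%) were higher and 167 (1.49%) lower. By gene, 1496 of 7411 passed (20.2%), of which 804 rose (10.8%) and 692 fell (9.34%), and these percentages are the background for every list below. For 6107 genes (82.4%) the 95% interval of the log2 difference lay within -1 to 1, so that a change over 2-fold was outside the interval. The groups did not overlap on 18.6% of genes. In bulk RNA, fewer cells of a kind and less RNA per cell cannot be told apart. Without untreated replicates 1 and 3, 997 probes passed. The direction of calls also moved with the scaling: 55.3% of called probes were higher after quantile normalization, and 24% after median scaling, which set the median of all probes at -0.207. Gene levels and differences below are on the quantile-normalized log2 scale, differences are combination minus untreated ± SE with 4 arrays a side, and adjusted p-values are from limma.

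For scale, EGBG alone differed from untreated cells on 4789 probes (42.7%), SDSM alone on 3242 (28.9%), and the combination from EGBG alone on 6127 (54.6%). By gene, 23.7% were higher and 22.9% lower with EGBG alone than on day 6, and 15% and 16.7% with SDSM alone, the background of the counts quoted for these groups. The combination differed from SDSM alone on 133 (1.19%). The EGBG and SDSM values against day 6 use the same untreated arrays as the main comparison, so they are given side by side and not as independent evidence.

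The 12 largest rises included antimicrobial and cornification genes. In a second deposited table, used as an alternative only, DEFB103B, DEFB103A, DIO2, S100A7A, TCHHL1, PSG4, PSG7 and LCE2A differed by 0. The beta-defensin copies DEFB103B and DEFB103A, antimicrobial peptides, rose by 3.46 ± 0.33 and 3.35 ± 0.46. DEFB103B lay at 7.46, 7.85, 8.18 and 8.61 on the untreated arrays and at 11.85, 10.90, 11.44 and 11.74 in the combination. These copies are near identical, so their probes may read one another. DIO2, the deiodinase that activates thyroid hormone, rose by 3.16 ± 0.27, from 7.42, 8.23, 8.36 and 8.72 to 11.57, 11.42, 10.59 and 11.77. Only genes whose 4 combination arrays did not overlap the untreated ones could enter these 12. S100A7A, an antimicrobial S100 protein, TAGLN3, an actin-binding protein, and GABBR2, a GABA receptor subunit, were detected on 0 untreated and on 4 combination arrays and were at least 4.39-fold, 7.21-fold and 3.92-fold higher (adjusted p 1.16e-05, 1.04e-05 and 6.7e-06). Such bounds set the brighter mean against the lowest detected signal. S100A7A, TAGLN3 and GABBR2 passed the detection filter through the combination arrays alone, so their direction followed from the filter. CXCL8, the neutrophil chemokine, rose by 3.03 ± 0.51, but its other probe differed by 0.68 and did not pass (adjusted p 0.235). TCHHL1, an S100-fused type protein, rose by 2.97 ± 0.31, and the related pregnancy-specific glycoproteins PSG4 and PSG7 by 2.79 ± 0.37 and 2.78 ± 0.31. TCHHL1 was detected on 1 and PSG7 on 2 of the untreated arrays. Of 7 tested PSG genes, whose sequences are alike, 6 rose. LCE2A, a late cornified envelope protein, rose by 2.53 ± 0.27 and ANKRD1, a target of YAP, by 2.31 ± 0.28, the latter from 3 detected untreated arrays.

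The 12 largest falls, likewise picked among genes without overlap between the groups, were of other kinds. DAPL1, a death-associated protein-like gene of epithelia, fell by 2.80 ± 0.35, from 11.14, 10.09, 10.14 and 9.76 to 7.46, 7.45, 8.61 and 6.39. The small heat shock protein HSPB3 fell by 2.30 ± 0.25 and the serine synthesis enzyme PSAT1 by 2.18 ± 0.51. MX1, an interferon-induced antiviral GTPase, fell by 2.08 ± 0.37, the gelatinase MMP9 by 2.01 ± 0.51, and the NRF2 targets AKR1B10 and PIR by 2.00 ± 0.27 and 2.00 ± 0.25. WNT10A, a WNT ligand, fell by 1.88 ± 0.32 and PIK3IP1, an inhibitor of PI3K, by 1.76 ± 0.32. RAB7B, a late endosomal GTPase, and ZNF467, a zinc finger protein, were detected on 4 untreated and 0 combination arrays and were at least 2.48-fold and 2.12-fold lower (adjusted p 1.35e-05 and 3.14e-05). RAB7B and ZNF467 passed the detection filter through the untreated arrays alone, so their direction followed from the filter. MMP9 was detected on 2, and DAPL1, AKR1B10, PIR and WNT10A on 3 combination arrays. LGALS7B, a galectin-7 copy, fell by 2.39 ± 0.68, and its untreated arrays were split, with replicates 1 and 3 at 12.08 and 12.37 and replicates 2 and 4 at 9.40 and 9.79. Without replicates 1 and 3 its difference was -1.08 (adjusted p 0.421); leaving out replicate 1 or replicate 3 alone also ended the call (adjusted p up to 0.0725). The call of PSAT1 ended without both together (-1.96, adjusted p 0.055).

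Cornified envelope genes rose far more often than they fell. Of 49 tested members 22 rose, 2 fell and 25 did not pass, against 10.8% and 9.34% of all genes, with a median of 0.54 (all genes 0.01). Beside this the median was -3.16 with EGBG alone and 0.66 with SDSM alone. Without untreated replicates 1 and 3, 19 rose and 1 fell. The late cornified envelope (LCE) proteins, which line the outer layers of the shell, were among the rises: 6 of 6 LCE1 genes rose, by 1.06 to 1.75, 4 of 4 LCE2 genes, by 1.66 to 2.53, and 2 of 4 LCE3 genes. LCE2A stood at 10.94, 11.30, 11.32 and 11.88 in untreated cells and at 13.73, 13.94, 13.46 and 14.42 in the combination. EGBG alone held it at 7.46 to 8.14, and SDSM alone at 13.76 to 14.47. The combination arrays thus overlapped those of SDSM and lay above every untreated array, the latter following from how LCE2A was picked. LCE2C rose by 2.05 ± 0.24, LCE3C by 1.86 ± 0.24 and LCE3A by 2.17 ± 0.30, the last by 1.30 without untreated replicates 1 and 3. In the second deposited table LCE2A, LCE1C, LCE3A and LCE3C differed by 0. Probes of these similar genes may share signal.

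Of the 35 tested envelope genes outside LCE1 to LCE3, 10 rose, 2 fell and 23 did not pass. The rises included KPRP, the keratinocyte proline-rich protein (1.77 ± 0.21), LCE6A (1.51 ± 0.19), corneodesmosin (CDSN), which holds corneocytes together (1.39 ± 0.22), and CASP14, the caspase of cornification (0.85 ± 0.15). Of 7 small proline-rich SPRR2 genes, 0 rose and SPRR2B (-1.28) and SPRR2A (-0.98) fell, after differences of -5.41 and -3.76 with EGBG alone. CNFN, a cornified envelope protein, differed by 0.14 ± 0.23, SPRR1A by 0.03 ± 0.13 and SPRR2E by 0.05 ± 0.29, each with a 95% interval within -1 to 1. CNFN lay at 15.48, 15.19, 15.32 and 15.49 untreated and at 15.51, 15.28, 15.59 and 15.64 in the combination, and at 12.07 to 12.47 with EGBG alone. The highest normalized level of any array was 15.92, so these genes lie near the top of the scale, where differences can be compressed, and how far this holds down their differences was not tested. Involucrin (IVL), an early envelope precursor, rose by 0.70 ± 0.16, from 10.10, 9.66, 9.57 and 9.74 to 10.79, 10.33, 10.30 and 10.46, against 6.29 to 6.74 with EGBG alone. After median scaling IVL did not pass (0.53, adjusted p 0.0621), and in the second deposited table it differed by 0.

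**Figure D1:**
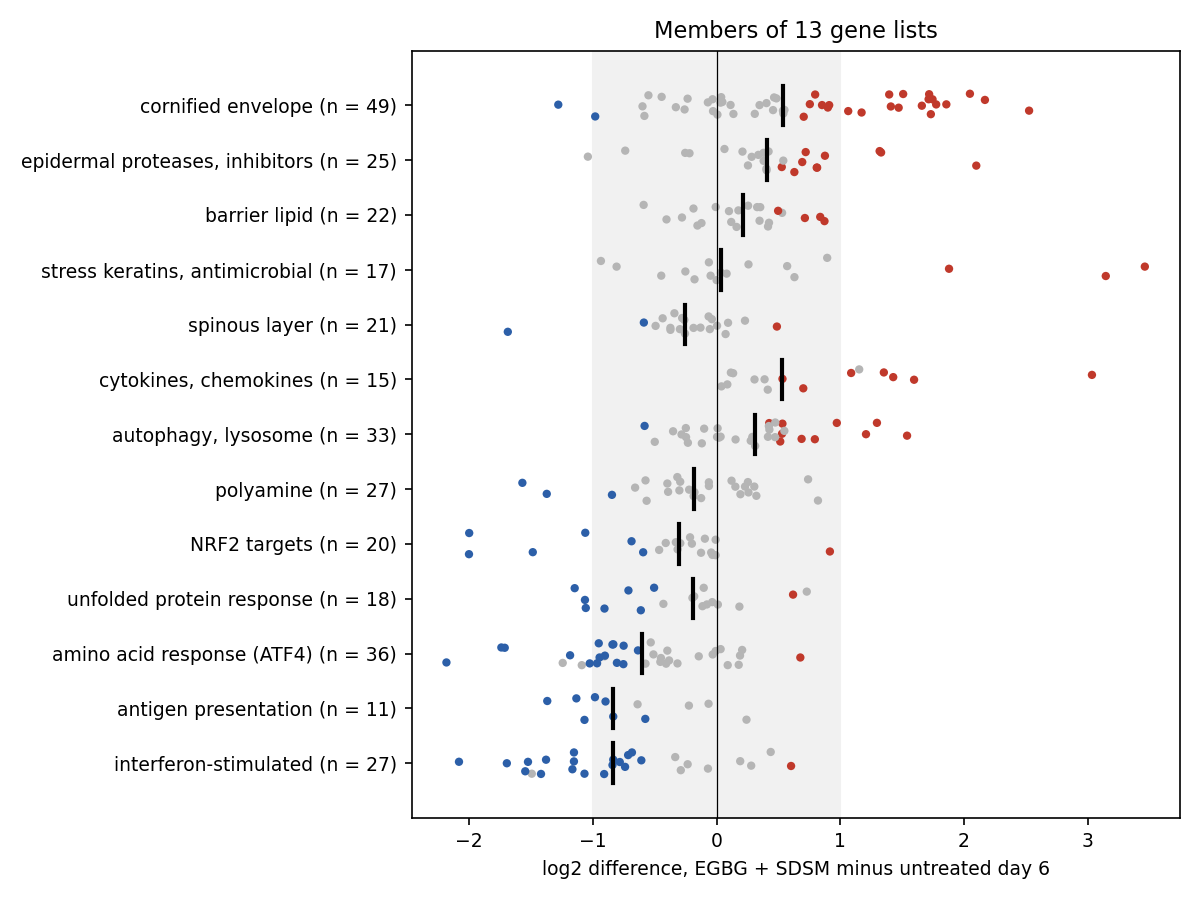
Log2 differences (x axis, combination minus untreated day 6) of the tested members of 13 gene lists, 1 point a gene, red higher and blue lower past an adjusted p of 0.05, grey not past it; black bars are medians and the shaded band spans -1 to 1. Cornified envelope members lie mostly to the right (median 0.54), interferon-stimulated and antigen presentation members mostly to the left (-0.84 for both).

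Epidermal proteases rose in part: 10 of 25 proteases and inhibitors rose and 0 fell, with a median of 0.40 (EGBG alone -1.64, SDSM alone 0.53). KLK6, a kallikrein-related serine protease, rose by 2.10 ± 0.30, from 11.42, 11.86, 11.67 and 12.07 to 13.97, 13.74, 13.58 and 14.13. ASPRV1, the retroviral-like protease of filaggrin processing, rose by 1.33 ± 0.20, KLK13 by 1.32 ± 0.17 and BLMH, which breaks down filaggrin fragments, by 0.88 ± 0.20. ASPRV1 and KLK13 differed by 0 in the second deposited table. The brightest members whose interval lay within -1 to 1 were SERPINB7 (0.06 ± 0.13), KLK11 (0.21 ± 0.16) and KLK5 (0.38 ± 0.14). Without untreated replicates 1 and 3, 5 of the 25 rose.

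Barrier lipid and spinous genes passed the threshold less often than cornified envelope genes. Of 22 barrier lipid genes 4 rose and 0 fell, where EGBG alone had lowered 21 with a median of -1.78. For 18 the interval lay within -1 to 1, a share near the 82.4% of all genes. ELOVL4, which elongates very long fatty acids, differed by -0.01 ± 0.16, ALOX12B by 0.33 ± 0.26 and TGM1, the transglutaminase that cross-links the envelope, by 0.35 ± 0.22. The 4 that rose were CYP4F22, the acylceramide hydroxylase (0.87 ± 0.25), the glucosylceramide synthase UGCG (0.84 ± 0.22), the lipase LIPK (0.71 ± 0.17) and ABHD5 (0.50 ± 0.17). After median scaling 0 of the 22 passed and the list's median was -0.01, and without untreated replicates 1 and 3 only 1 passed, LIPK. The count was 2 without combination replicate 1 or without untreated replicate 1. CYP4F22 also did not pass without untreated replicate 3, nor ABHD5 without combination replicate 2 or 4 or untreated replicate 4 (adjusted p up to 0.0773 and 0.195 over single arrays). In the second deposited table CYP4F22 and LIPK differed by 0. Among 21 spinous genes 1 rose and 2 fell, with a median of -0.26 (all genes 0.01). Their 18 intervals within -1 to 1 were also near the share of all genes. Among these were KRTDAP (0.07 ± 0.22), SBSN (0.09 ± 0.25) and the connexin GJB2 (-0.07 ± 0.15). The fall that held without untreated replicates 1 and 3 was that of the galectin LGALS7 (-1.69 ± 0.33), which differed by 0 in the second deposited table. GJA1 (-0.59 ± 0.18) and DSC2 (0.49 ± 0.15) did not pass without those replicates (adjusted p 0.198 and 0.154). GJA1 also lost its call without combination replicate 3 or 4 or untreated replicate 1, 2 or 3 alone. DSC2 lost its call without combination replicate 1 or 3 or untreated replicate 1 or 4 alone.

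Stress keratin and antimicrobial genes ranged from large rises to levels like the untreated ones. Of 17 members 3 rose and 0 fell: DEFB103B, S100A7A and RNASE7, an antimicrobial ribonuclease, which rose by 1.88 ± 0.26. S100A7A passed the detection filter through the combination arrays alone, so its direction followed from the filter. RNASE7 lay at 11.59, 12.28, 12.67 and 13.07 untreated, at 14.19, 14.03, 14.38 and 14.52 in the combination, and at 9.70 to 11.02 with EGBG alone. The calprotectin subunits S100A8 and S100A9 and the elastase inhibitor PI3 were at the top of the scale in both groups and differed by -0.05 ± 0.22, 0.00 ± 0.35 and 0.08 ± 0.28. S100A9 lay at 15.44 to 15.57 untreated and 15.45 to 15.53 in the combination, against 11.02 to 13.67 with EGBG alone. The list's median was 0.04, beside -1.79 with EGBG alone and 0.02 with SDSM alone; 5 rose without untreated replicate 2.

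**Figure D2:**
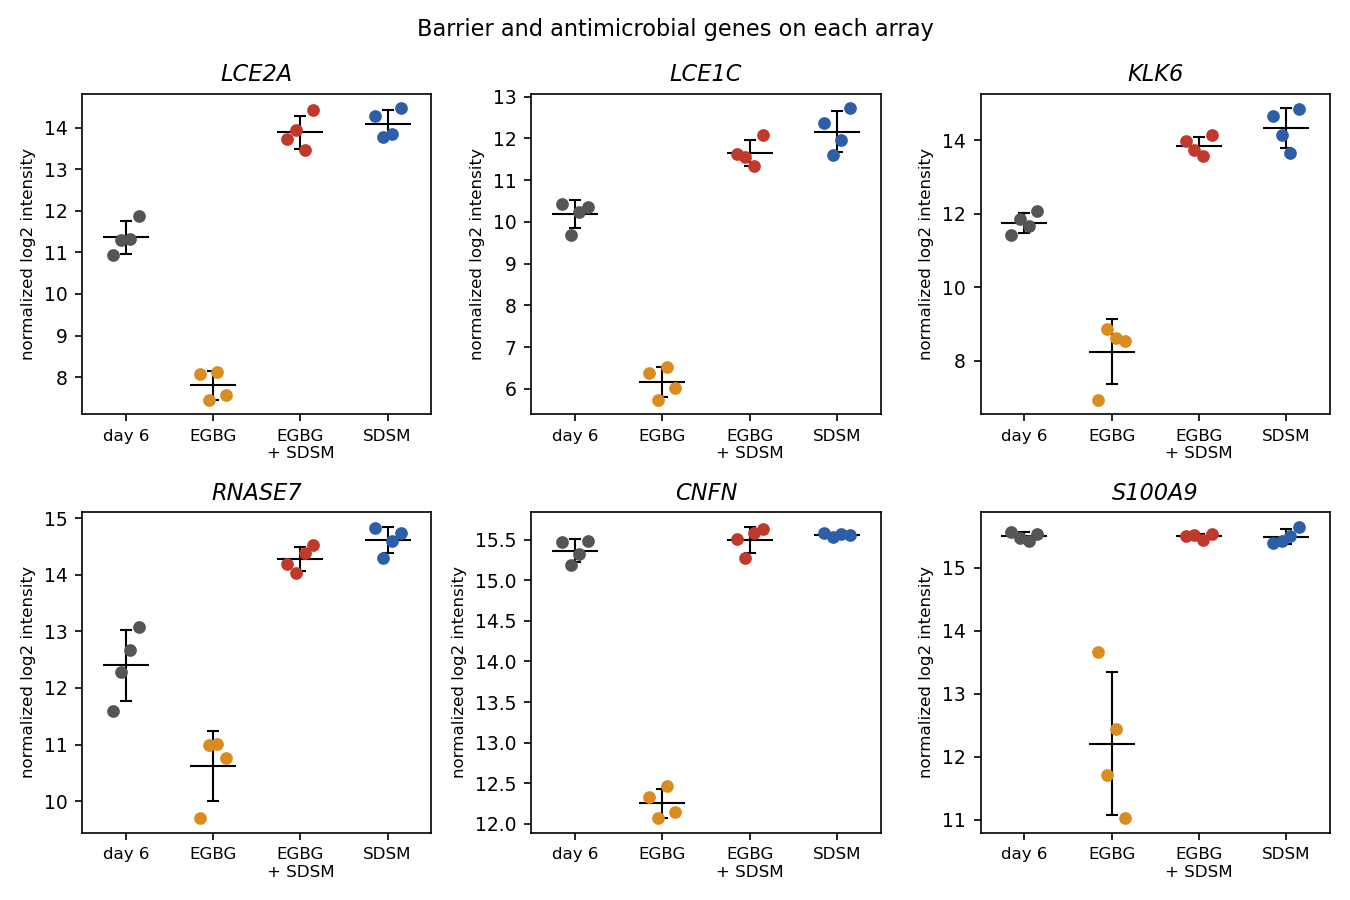
Normalized log2 intensity (y axis) of 6 genes on each array of untreated day 6, EGBG, EGBG plus SDSM and SDSM, 4 arrays a group, with mean and SD as bars. For LCE2A, LCE1C, KLK6 and RNASE7 the combination lies above all untreated arrays and near SDSM alone, and for CNFN and S100A9 it overlaps the untreated arrays. LCE2A was picked among genes whose combination and untreated arrays do not overlap, so its separation follows from the choice.

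The main basal keratins fell. KRT5, the basal type II keratin, fell by 1.19 ± 0.34, from 13.71, 12.47, 12.33 and 12.03 to 11.68, 11.33, 11.89 and 10.89, and its partner KRT14 by 0.74 ± 0.18. Both had their highest untreated value on replicate 1: without it KRT5 did not pass (-0.83, adjusted p 0.0849), nor did it without combination replicate 4, and KRT14 fell by 0.49, still past the threshold (adjusted p 0.0259). Without untreated replicates 1 and 3 neither passed (adjusted p 0.184 and 0.124). KRT15, another basal keratin, rose by 1.67 ± 0.25, from 6.71, 6.22, 6.69 and 6.25 to 7.86, 7.86, 8.15 and 8.67, and was detected on 2 untreated arrays. COL7A1, the anchoring fibril collagen, fell by 1.27 ± 0.18 and P-cadherin (CDH3) by 1.16 ± 0.27. Of 19 basal and hemidesmosome genes 3 rose and 5 fell, and 3 and 1 without untreated replicates 1 and 3; the falls were 3 without combination replicate 4 or untreated replicate 1. CDH3 did not pass without untreated replicates 1 and 3 (adjusted p 0.0654). The spinous keratins KRT1 and KRT10 differed by -0.49 ± 0.33 and -0.37 ± 0.22 and did not pass.

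Most genes of the polyamine pathway did not pass. AMD1 itself, the target of EGBG, lay at 9.06, 7.62, 8.29 and 8.62 untreated and at 7.40, 8.12, 8.83 and 8.51 in the combination, a difference of -0.19 ± 0.32 (adjusted p 0.727). With EGBG alone it was at 8.88 to 10.45 (1.26 above untreated). ODC1 differed by -0.39 ± 0.19 (adjusted p 0.163), beside -1.25 with EGBG alone; all 4 combination arrays (8.13 to 8.54) lay just below the untreated ones (8.55 to 8.98), and after median scaling the fall passed (-0.67, adjusted p 0.0361). The synthases SRM and SMS differed by -0.06 ± 0.17 and 0.19 ± 0.23, the acetyltransferase SAT1 by 0.25 ± 0.13, the antizyme OAZ1 by 0.32 ± 0.13 and the oxidase SMOX, detected on 2 arrays of each group, by 0.15 ± 0.21. AZIN1, the antizyme inhibitor that protects ODC1 from degradation, fell by 0.85 ± 0.14, from 9.86, 9.37, 9.73 and 9.52 to 8.74, 8.81, 8.94 and 8.60. It was 0.71 higher with EGBG alone and 0.89 lower with SDSM alone. Of 27 members 0 rose and 3 fell, the others being the arginine synthesis enzyme ASS1 (-1.37 ± 0.23; its other probe -2.03) and GPC1, a proteoglycan linked to polyamine uptake, detected on 0 combination arrays and at least 1.89-fold lower (adjusted p 0.00113). GPC1 passed the detection filter through the untreated arrays alone, so its direction followed from the filter. After median scaling 9 of the 27 fell.

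Genes of amino acid supply fell more often than they rose. ATF4 is a transcription factor that, when amino acids or charged tRNAs are short, turns on serine, glycine and asparagine synthesis, amino acid transporters and aminoacyl-tRNA synthetases. Of 36 such genes 15 fell and 1 rose (PPP1R15A), with a median of -0.61; without untreated replicates 1 and 3, 9 fell. The count was 11 to 19 over single arrays left out. EGBG alone gave 25 lower and a median of -0.78, and SDSM alone 0 lower, 2 higher and 0.08. PHGDH, the first enzyme of serine synthesis, lay at 12.64, 12.87, 12.71 and 12.60 untreated and at 11.49, 10.45, 11.47 and 10.45 in the combination, a fall of 1.74 ± 0.24. EGBG alone left it at 11.44 to 12.61 and SDSM alone at 11.97 to 12.44, so every combination array was below every SDSM array. PSAT1, the next enzyme of that pathway, was at 10.61, 10.79, 11.82 and 10.74 and at 10.51, 7.48, 8.30 and 8.94. Asparagine synthetase (ASNS) fell by 1.71 ± 0.40, from 11.54, 11.54, 12.28 and 11.86 to 11.13, 8.55, 10.65 and 10.04, and CBS, of the transsulfuration pathway, by 1.19 ± 0.30. Combination replicate 1 was the highest of its group for PSAT1, ASNS and CBS. The transcript of ATF4 itself differed by -0.01 and that of DDIT3, a stress factor it induces, by -1.09 without passing (adjusted p 0.103).

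A pair of promoters of this list are shown because they hold the sequence that such factors bind, the C/EBP-ATF response element, searched as TGATGNAA on both strands in the 250 bases before the gene's start (RefSeq, GRCh38.p14). Capitals mark the match, and a match on the strand opposite to the gene reads as the reverse complement.
ASNS, chr7:97872419-97872526, minus strand: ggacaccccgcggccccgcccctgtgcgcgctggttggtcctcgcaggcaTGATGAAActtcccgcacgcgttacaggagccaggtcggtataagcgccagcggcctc
CHAC1, chr15:40953221-40953319, plus strand: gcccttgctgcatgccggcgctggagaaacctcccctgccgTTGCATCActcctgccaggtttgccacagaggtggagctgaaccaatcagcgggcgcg
Of all 27305 genes with a listed promoter 3.89% hold a match, of tested genes 2.47%, of the 32 listed genes found there 8, and of the 13 that fell 3. The gene list was drawn from genes known to respond to ATF4, so this share describes the list and not the treatment. The match starts 68 bases before the ASNS start and 209 before that of CHAC1. A match is a description of the letters and no evidence of binding.

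**Figure D3:**
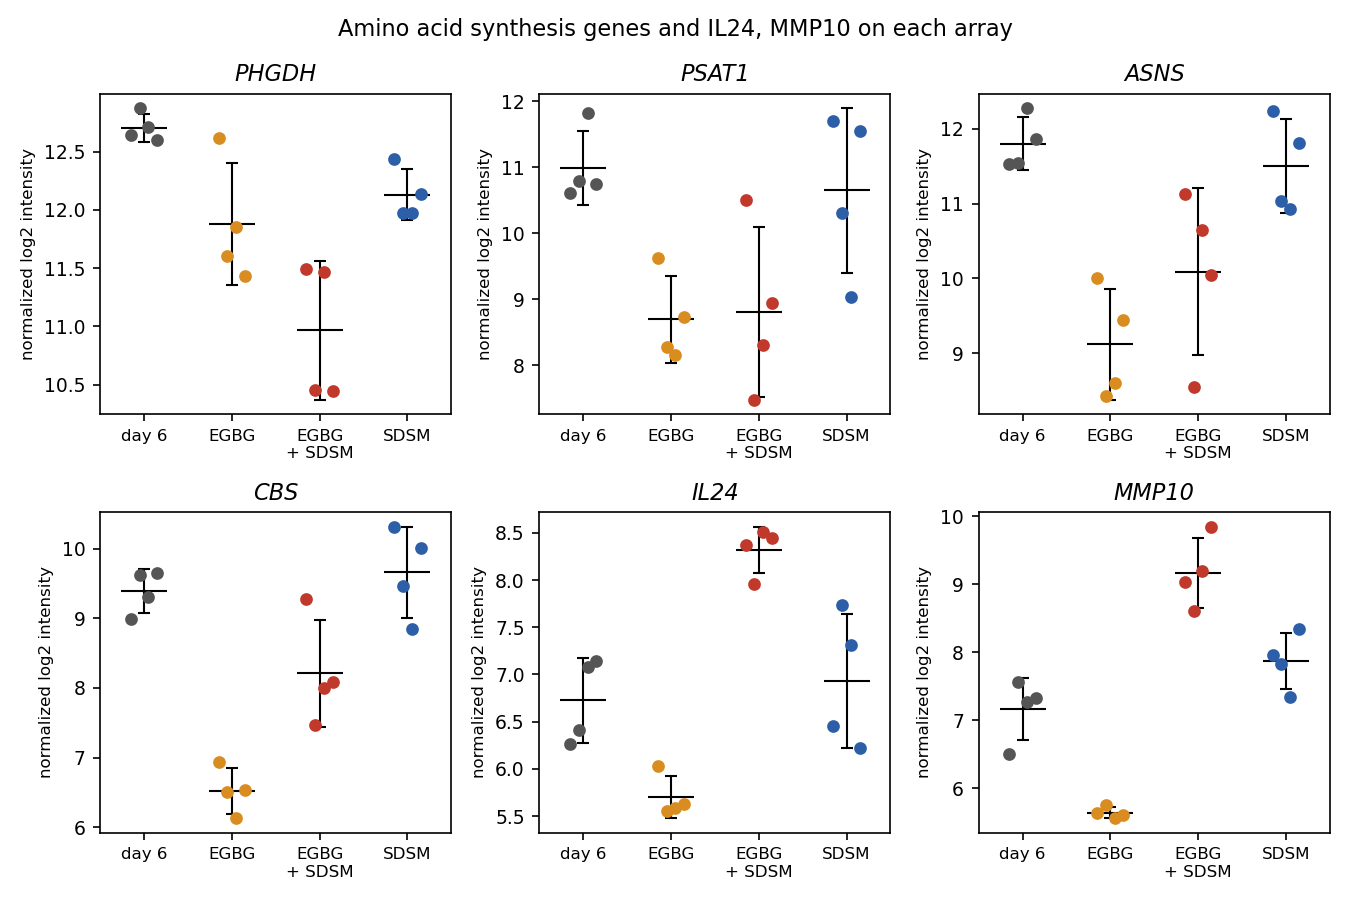
Normalized log2 intensity (y axis) of 6 genes on each array of 4 groups, with mean and SD as bars. PHGDH, PSAT1, ASNS and CBS lie lower in the combination than with SDSM alone for most arrays, and IL24 and MMP10 higher in the combination (7.96 to 8.50 and 8.61 to 9.85) than in all other arrays shown. IL24, MMP10 and PHGDH were picked among genes whose combination and SDSM arrays do not overlap, so their separation from SDSM follows from the choice.

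Cells of the combination and of SDSM alone differ by EGBG only, and genes of amino acid supply were among the few that differed between them. Of 7411 genes 59 were higher (0.796%) and 39 lower (0.526%) in the combination, and for 6979 (94.2%) the 95% interval lay within -1 to 1. Same-numbered arrays of these groups deviated together, and with the replicate number as a block 321 probes passed in place of 133. Of the 36 ATF4 genes 7 were lower and 0 higher, with a median of -0.66, and 15 were lower with the block. Arrays of these groups did not overlap on 9.32% of genes. The lower genes included PHGDH (-1.16 ± 0.24, adjusted p 0.0176, 0.00337 with the block), CBS (-1.45 ± 0.30, adjusted p 0.0186), STC2, a secreted glycoprotein (-1.88 ± 0.45, 0.0366), CHAC1, a glutathione-degrading enzyme (-1.86 ± 0.44, 0.0389), and the glycine transporter SLC6A9 (-1.16 ± 0.24, 0.0186). STC2 lay at 8.19, 6.60, 6.53 and 7.61 in the combination and at 9.67, 8.80, 8.34 and 9.65 with SDSM alone, with 6.99, 8.03, 9.31 and 9.59 untreated. CHAC1 was similar, at 8.53, 6.40, 6.10 and 7.13 against 9.17, 8.54, 8.78 and 9.10; against untreated cells neither passed (-1.24 and -0.91, adjusted p 0.0551 and 0.163). After median scaling both did (-1.54 and -1.14), as without combination replicate 1 or untreated replicate 1, and STC2 also without untreated replicate 2 (-1.40) or replicates 1 and 3 (-1.58). Both were detected on 2 combination arrays. GRB14, a receptor adaptor, and ZNF467 were the other large falls (-1.28 ± 0.29 and -1.08 ± 0.26). ZNF467 was undetected on all combination arrays, so its fitted fall rests partly on background values. The largest rises were IL24 and IL20, cytokines of the IL-10 family (1.39 ± 0.27 and 1.15 ± 0.26), the stromelysin MMP10 (1.30 ± 0.27), TTC27 (1.29 ± 0.21), the mitochondrial import protein TIMM8A (1.16 ± 0.16) and CARD17P (1.08 ± 0.22). IL24 lay at 8.38, 7.96, 8.50 and 8.44 in the combination, 6.46, 7.73, 7.31 and 6.22 with SDSM and 6.27, 6.41, 7.08 and 7.14 untreated.

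These calls moved with single arrays. Without SDSM replicate 1, 30 probes passed, without SDSM replicate 4, 31, without combination replicate 3, 32, without combination replicate 4, 44, and without combination replicate 2, 63. The ATF4 count was 0 without SDSM replicate 1 or 4 or combination replicate 2 or 4, 2 without combination replicate 3, and 15 without combination replicate 1, while its median ran from -0.80 to -0.54. With the spread taken from these 8 arrays only, 3 probes passed and 0 of the 36. Of the 12 genes without overlap between these groups that were taken as the largest differences, TTC27 and TIMM8A passed with every single array left out; the other calls ended without at least 1 array (2 of 12 held without SDSM replicate 1). CBS, whose arrays overlap, is not among the 12.

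Genes induced by interferon were lower. MX1, IFIT and IFITM proteins block viral entry and replication and are switched on by interferon. Of 27 members 18 fell and 1 rose (ISG20, 0.60), with a median of -0.84, or -0.74 with undetected genes at their bound; without untreated replicates 1 and 3, 12 fell. The medians were -0.92 with EGBG alone and -1.15 with SDSM alone. MX1 lay at 10.10, 10.63, 10.33 and 10.05 untreated and at 8.58, 8.16, 8.25 and 7.80 in the combination, and at 7.29 to 8.18 with SDSM alone. IFITM1 fell by 1.70 ± 0.45, from 10.60, 9.72, 9.44 and 9.75 to 8.37, 8.61, 7.76 and 7.97. IFI44 and IFIT1, each detected on 1 combination array, fell by 1.55 ± 0.26 and 1.53 ± 0.36. IFITM1 did not pass without untreated replicate 1 (adjusted p 0.0501) or without replicates 1 and 3 (-1.55, adjusted p 0.0849). Of the 18 genes that fell, 0 differed from SDSM alone past the threshold.

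Genes of antigen presentation by MHC class I also fell, a process in which TAP1 and TAP2 carry peptides, cut by the immunoproteasome, to HLA molecules. Of 11 members 7 fell and 0 rose, with a median of -0.84 (-0.64 at bounds); 4 fell without untreated replicates 1 and 3. TAP1 and PSMB8 are also on the interferon list. Beside these stood medians of 0.32 with EGBG alone, where 5 members were higher, and -0.72 with SDSM alone. HLA-B, whose probe may read related HLA genes, fell by 1.37 ± 0.29, from 9.24, 8.97, 8.95 and 9.02 to 7.32, 7.60, 8.13 and 7.65. HLA-F fell by 1.13 ± 0.28, TAP1 by 1.07 ± 0.19 and tapasin (TAPBP), which loads the peptides, by 0.98 ± 0.28. TAP1 lay at 10.92, 10.45, 9.80 and 10.18 untreated, at 9.49, 9.30, 9.10 and 9.17 in the combination and at 11.33 to 11.46 with EGBG alone. HLA-F and TAPBP did not pass without untreated replicates 1 and 3 (adjusted p 0.0757 and 0.0855), nor TAPBP without replicate 1 alone (0.0642).

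The promoters below are shown for genes of these 2 lists that fell, with the interferon-stimulated response element in capitals. It was searched as GAAA, any 2 bases and GAAA again, on both strands in the 250 bases before the start, and read from the opposite strand it begins and ends with TTTC; overlapping matches were joined.
MX1, chr21:41431804-41431913, plus strand: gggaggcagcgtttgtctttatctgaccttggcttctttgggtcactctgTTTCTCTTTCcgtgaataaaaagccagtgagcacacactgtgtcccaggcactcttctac
IFIT1, chr10:89392457-89392579, plus strand: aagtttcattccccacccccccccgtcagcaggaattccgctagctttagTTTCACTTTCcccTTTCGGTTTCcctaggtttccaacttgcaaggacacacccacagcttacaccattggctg
IFI44, chr1:78649721-78649788, plus strand: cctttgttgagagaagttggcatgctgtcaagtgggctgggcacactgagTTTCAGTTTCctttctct
IFITM1, chr11:313950-314039, plus strand: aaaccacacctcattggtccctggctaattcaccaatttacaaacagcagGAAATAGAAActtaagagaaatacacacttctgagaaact
TAP1, chr6:32853773-32853888, minus strand: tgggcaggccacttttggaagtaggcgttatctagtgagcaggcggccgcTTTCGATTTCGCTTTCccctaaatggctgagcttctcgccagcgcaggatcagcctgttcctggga
Of all genes with a listed promoter 3.71% hold such a match, and of tested genes 3.3%. Of the 22 listed interferon genes with a listed promoter 16 hold it, as do 12 of the 16 that fell. The gene list was drawn from genes known to respond to interferon, so this share describes the list and not the treatment.

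**Figure D4:**
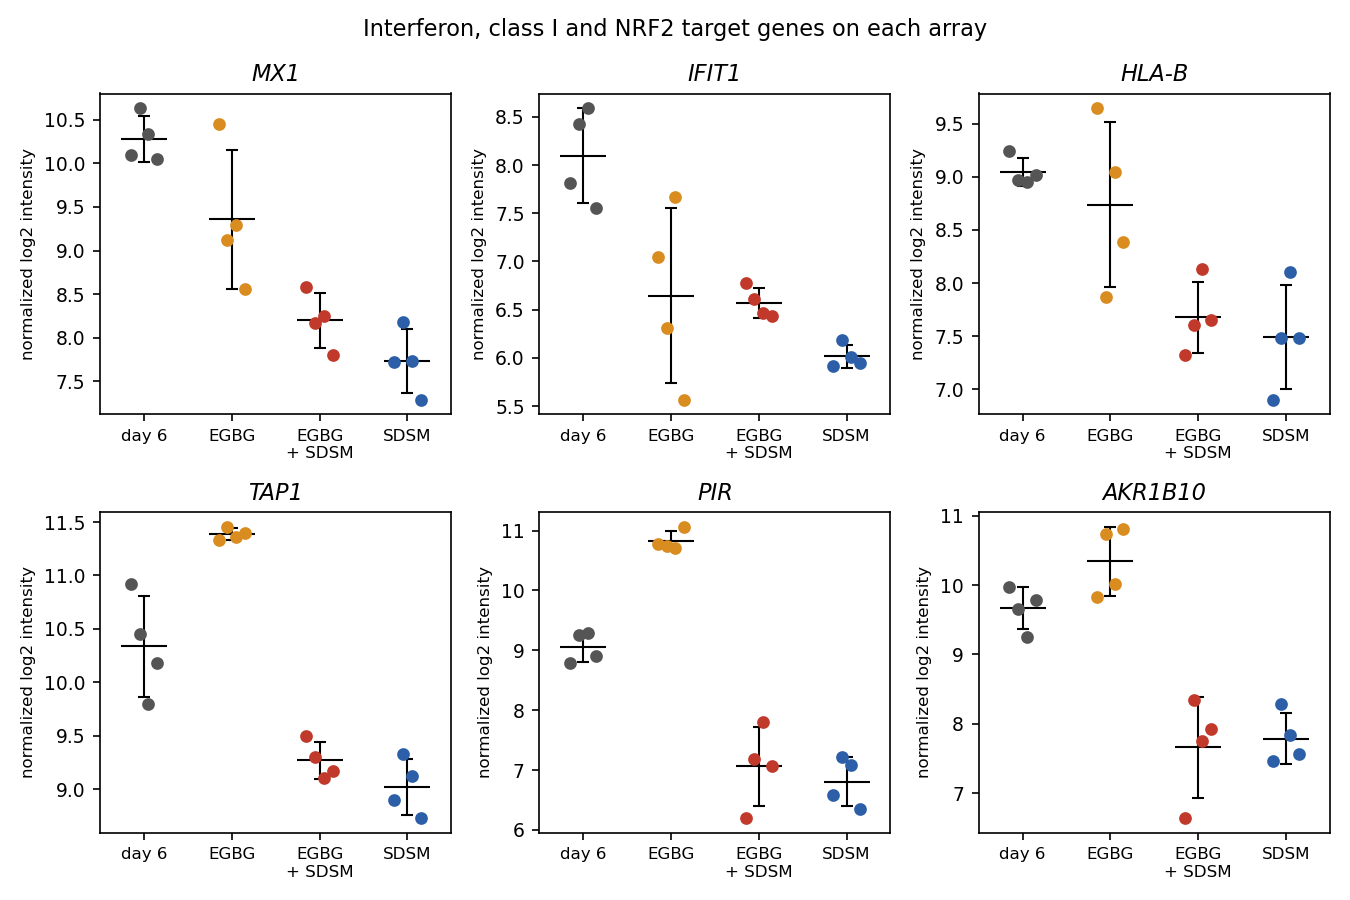
Normalized log2 intensity (y axis) of 6 genes on each array of 4 groups, with mean and SD as bars. All 6 lie lower in the combination than in untreated cells, and with EGBG alone TAP1 and PIR lie above every untreated array. MX1, PIR and AKR1B10 were picked among genes whose combination and untreated arrays do not overlap, so that separation follows from the choice.

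NRF2 targets, which serve the defence against oxidants and the supply of NADPH, were split by treatment. Of 20 members 6 fell and 1 rose in the combination (median -0.31), where EGBG alone gave 15 higher and 2 lower (median 0.67) and SDSM alone 1 and 7 (median -0.26). PIR, an iron-binding nuclear protein, lay at 8.79, 9.25, 9.29 and 8.90 untreated, at 6.20, 7.19, 7.79 and 7.06 in the combination and at 10.71 to 11.07 with EGBG alone. The aldo-keto reductase AKR1B10 fell from 9.97, 9.66, 9.26 and 9.78 to 6.64, 8.34, 7.75 and 7.93, and both genes were detected on 3 combination arrays. PGD, of the pentose phosphate pathway, fell by 1.49 ± 0.30 and AKR1C2 by 1.06 ± 0.24, and neither passed without untreated replicates 1 and 3 (adjusted p 0.0653 and 0.0621), when 4 members fell. The member that rose was heme oxygenase HMOX1 (0.92). The antioxidant response element was searched as TGACNNNGC in the same way as the elements above. It matched 4 of the 15 listed members with a listed promoter, 13.22% of all genes and 16.52% of tested genes.

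Several chaperones of the endoplasmic reticulum fell and several cytosolic ones rose. Of 18 genes of the unfolded protein response 7 fell and 1 rose, with a median of -0.19: the chaperone HSPA5 by 1.15 ± 0.28, CRELD2 by 1.06 ± 0.20, the disulfide isomerase PDIA6 by 1.06 ± 0.34 and the coat protein SEC24D by 0.91 ± 0.20. PDIA6 was detected on 2 combination arrays and did not pass without combination replicate 1 or 2 or untreated replicate 1 or 3 (adjusted p up to 0.167). Of 20 heat shock genes 7 rose and 1 fell (median 0.30), and after median scaling 2 and 1. HSPA6, an inducible HSP70, was detected on 0 untreated and 4 combination arrays and was at least 1.85-fold higher (adjusted p 3.11e-06). It passed the detection filter through the combination arrays alone, so its direction followed from the filter. HSPB8 rose by 0.88 ± 0.17, HSPA1A by 0.81 ± 0.25 and BAG3, which works with HSPB8 in protein clearance, by 0.67 ± 0.18. HSPA6 and HSPB8 differed by 0 in the second deposited table. HSPA1A and BAG3 did not pass without untreated replicate 3 or after median scaling, nor HSPA1A without combination replicates 1 or 2 or untreated replicate 4 (adjusted p up to 0.113 and 0.0577 over single arrays). With untreated replicates 1 and 3 left out, 3 heat shock genes rose and 6 genes of the unfolded protein response fell.

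Inflammatory and growth-factor response genes rose in part. Of 15 cytokine and NF-kappa-B genes 7 rose and 0 fell (median 0.53): CXCL8, IL24 (1.60 ± 0.27), CXCL1 (1.43 ± 0.40), CCL20 (1.35 ± 0.47), the inhibitors TNFAIP3 (1.09) and NFKBIA (0.70), and TSLP (0.53). CXCL8 lay at 6.44, 7.07, 8.60 and 8.12 untreated and at 12.42, 9.81, 9.38 and 10.76 in the combination. The count was 4 without combination replicate 1 or untreated replicate 1, 3 without combination replicate 4, and 2 without untreated replicates 1 and 3. CXCL1, detected on 1 untreated and 3 combination arrays, and CCL20 did not pass without combination replicate 1 or 4 or untreated replicate 1, nor CCL20 without untreated replicate 2. Of 29 immediate early and EGF receptor response genes 8 rose and 0 fell (median 0.32), led by CCN2 (1.61 ± 0.31), the feedback inhibitor SPRY2 (1.33 ± 0.22), IER3 (1.23 ± 0.26) and EGR3 (0.85 ± 0.26). SPRY2 was also above SDSM alone (0.92, adjusted p 0.0389). That count was 4 without combination replicate 1 or 4 or untreated replicate 1, 5 without combination replicate 2 or untreated replicate 3, and 3 without untreated replicates 1 and 3 or after median scaling (median 0.10). EGR3 lost its call without combination replicate 1, 2 or 4 or untreated replicate 1 or 3, at the lowest with 0.49.

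Sugar-sensing, metal and lysosomal genes moved as well. TXNIP, an inhibitor of glucose uptake, lay at 12.94, 11.80, 9.0 and 10.81 untreated, at 8.51, 9.14, 9.25 and 8.51 in the combination, at 14.22 to 14.36 with EGBG alone and at 7.32 to 8.96 with SDSM alone. It fell by 2.28 ± 0.55, although the groups overlap through untreated replicate 3. Its relative ARRDC4, 2.26 higher with EGBG alone, differed by -0.09 ± 0.27. Of the 9 genes listed with them 4 rose and 1 fell, and 1 rose without untreated replicates 1 and 3. Of 27 glycolysis and hypoxia genes 8 rose and 0 fell, with a median of 0.07; after median scaling 2 rose and the median was -0.03. ANKRD37 rose by 1.20 ± 0.27, the glycolytic regulator PFKFB3 by 1.05 ± 0.25 (its other probe 0.20), the glucose transporter SLC2A3 by 0.92 ± 0.18 and EGLN3, an oxygen sensor, by 0.68 ± 0.22. PFKFB3 and EGLN3 did not pass without untreated replicates 1 and 3 (adjusted p 0.198 and 0.478), nor EGLN3 without either of them or combination replicate 2 or 4, and the count was then 4, as without combination replicate 4; it was 5 without untreated replicate 1, and ANKRD37 missed the threshold after median scaling (adjusted p 0.0591).

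Metallothioneins, which bind zinc and copper, went both ways: MT1G rose by 1.21 ± 0.18, from 7.99, 8.32, 8.69 and 8.55 to 9.68, 9.39, 9.53 and 9.82, and MT1E by 1.07 ± 0.22. MT1X fell by 2.06 ± 0.62, with untreated values of 14.62, 12.59, 14.83 and 13.33 that overlap those of the combination, 11.05, 11.67, 12.83 and 11.58; it did not pass without combination replicate 1 or 4 or untreated replicate 1 or 3 (adjusted p up to 0.0821). The related sequences of these genes may share signal. Of 33 autophagy and lysosome genes 10 rose and 1 fell (median 0.31), and after median scaling 5 and 1 (median 0.13). WIPI2, of the forming autophagosome, rose by 1.54 ± 0.22, from 7.25, 7.20, 6.54 and 6.89 to 8.81, 8.79, 7.89 and 8.54, the protease CTSB by 1.30 ± 0.19, RRAGD, of the lysosomal nutrient sensor, by 1.21 ± 0.27, and the kinase ULK1 by 0.97 ± 0.25. Without untreated replicates 1 and 3, 4 rose and ULK1 differed by 0.42 (adjusted p 0.289).

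Counts of the cell cycle, ribosome and respiration lists stand against 10.8% of all genes higher and 9.34% lower. Of 8 mitosis genes 1 rose, CDC20, the activator of the anaphase ubiquitin ligase (1.35 ± 0.27), and of 14 DNA replication genes 2 rose and 4 fell. Of 20 ribosome biogenesis genes 4 rose, of 42 ribosomal protein genes 1 rose, and of 39 oxidative phosphorylation genes 4 fell. Of 16 cholesterol synthesis genes 1 fell, of 14 p53 targets 1 rose and 1 fell, and of 21 transcription factors of differentiation 3 rose. The 4 ribosome biogenesis genes were 0 without untreated replicate 1 and after median scaling. The DNA replication genes that fell were 1 without combination replicate 1 and 2 without combination replicate 2 or untreated replicate 2 or 3. The oxidative phosphorylation genes that fell were 1 without combination replicate 4 and 2 without combination replicate 1 or 2 or untreated replicate 1 or 3. With the replicate number as a block more of the 39 fell, as given in the closing section. The transcription factors that rose were 0 without combination replicate 1 or untreated replicate 3, and 1 without combination replicate 2 or 4 or untreated replicate 1.

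A set of genes that differ with EGBG was chosen from EGBG against putrescine, groups that do not enter the main comparison. On that contrast 950 genes were over 2-fold lower with EGBG past the threshold (12.8%) and 578 over 2-fold higher (7.8%), a choice that shares with the main comparison the normalization, the pooled spread and the detection filter on its 8 arrays. A response to putrescine can enter it too: against day 6, 856 of the 950 were lower and 459 of the 578 higher with EGBG alone. Of the 950, 369 (38.8%) were higher in the combination than in untreated cells and 34 (3.58%) lower, with a median of 0.41 against 0.01 for all genes. Of the 578, 190 (32.9%) were lower and 15 (2.6%) higher, with a median of -0.42. For 548 of the 950 and 370 of the 578 (57.7% and 64%) the 95% interval lay within -1 to 1, against 82.4% of all genes. Genes lower with EGBG than with putrescine were thus more often above than below the untreated level in the combination, and genes higher on that contrast more often below. Leaving out untreated replicates 1 and 3, the counts were 196 and 24 with a median of 0.28, and 11 and 108 with a median of -0.29. After median scaling, with all probes shifted by -0.207, they were 203 and 58 (median 0.20), and 4 and 237 (median -0.64).

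The 4 genes most lowered on that contrast were LCE2A, KLK6, LCE1C and LCE1B, and all 4 were higher in the combination than in untreated cells. LCE1C lay at 10.44, 9.69, 10.25 and 10.36 untreated and at 11.62, 11.57, 11.35 and 12.09 in the combination, a rise of 1.47 ± 0.25, and LCE1B rose by 1.73 ± 0.27. The 4 most raised were TXNIP, ARRDC4, PIR and DAPL1, of which TXNIP, PIR and DAPL1 fell and ARRDC4 did not pass. SDSM alone gave the 950 a median of 0.61 and the 578 a median of -0.65 against day 6, and the combination differed from SDSM alone by medians of -0.21 and 0.28.

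**Figure D5:**
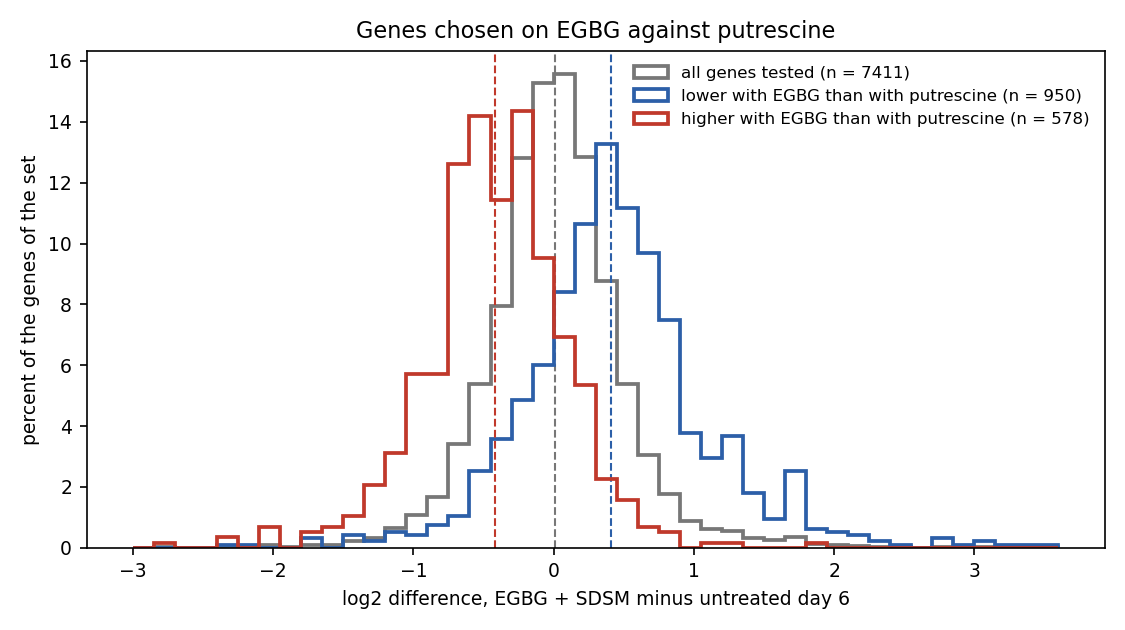
Percent of genes (y axis) by log2 difference of the combination from untreated day 6 (x axis, bins of 0.15) for all 7411 genes, the 950 lower and the 578 higher with EGBG than with putrescine; dashed lines are medians. The lowered genes centre on 0.41, the raised ones on -0.42 and all genes on 0.01.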

How the data were processed

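RNA of N/TERT1 cells was measured on Illumina bead arrays. The authors deposited a matrix of linear intensity values, background-subtracted and not normalized between arrays as far as the values show (-67.97 to 68803.6), and, per the file headers, detection p-values. A second deposited table, floored at an intensity of 40 (65.7% of values), served as an alternative only. The submitters' processing notes name GenomeStudio; the labels state no settings. The planned design took the second table for the raw one.

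Intensities of all 24 arrays went through limma's neqc (limma 3.58.1, R 4.3.3; background from detection p-values, offset 16, quantile normalization, log2). All 6 groups entered 1 lmFit and eBayes fit without a replicate block, and p-values were adjusted over the 11216 probes (Benjamini-Hochberg). Symbols came from the platform annotation: 30102 probes had 1, 8 several and 17194 none; 2246 tested probes without a single symbol were not named. Promoter sequences are from RefSeq, GRCh38.p14.

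Genes were named by rule: the polyamine genes, the 12 largest rises and falls without overlap between arrays, up to 4 called and up to 3 bright unchanged members per list described, the 6 largest rises and falls against SDSM without overlap between arrays, the 4 extremes of EGBG against putrescine, and keratinocyte markers. Members named beyond the rule were chosen after their values were seen. The lists (31, with 624 of 889 entries tested) and members were chosen with earlier results of these data known. Same-numbered arrays of the combination and SDSM alone deviated from their group means with correlations of 0.28 to 0.43 in the 4 pairs, so the replicate numbers were taken to pair them; the labels do not say what a number marks. Precision is limited by 4 arrays a group. On 11216 simulated probes the fit recovered 18%, 92%, 100% and 100% of changes of 0.5, 1, 2 and 4 (log2), with 7 false calls. The simulated noise was independent between arrays and set no array apart, as untreated replicates 1 and 3 are in the data. These figures therefore do not cover that departure.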

Additional observations from a re-analysis of the deposited data

Results flagged for a closer look

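Among the 154 named genes, both groups of 4 arrays were screened for an array far from the others, 308 groups in all, and 11 were found. Chance alone gives about 5% of groups, a larger share than was found, so single flags may be chance. Untreated replicate 3 was the far array in 6 of them. It was high for PSAT1 (11.82, the others 10.61 to 10.79) and low for ALOX12B (11.94, the others 13.05 to 13.13), CDC20 (7.29, the others 7.995 to 8.084), RPL37 (8.28, the others 8.38 to 8.40), DSP (11.64, the others 12.42 to 12.56) and CDH1 (10.52, the others 11.51 to 11.64). Untreated replicate 1 was low for HSPB8 (9.39, the others 10.20 to 10.36) and untreated replicate 4 high for SLC2A3 (12.58, the others 12.09 to 12.17). In the combination, replicate 2 was high for SLC2A3 (13.34, the others 13.09 to 13.12), and replicate 3 was low for NFE2L3 (8.46, the others 9.07 to 9.18) and high for COX8A (11.67, the others 10.82 to 10.93).

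The effect of EGBG differed with and without SDSM on 2261 of 11216 probes (20.2%) by the interaction of the fit at an adjusted p under 0.05 (limma).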

How the results depend on the processing

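The 2020 probes that differed from day 6 were 1285 in the other deposited table, 881 with the spread taken from the 8 arrays alone, and 997 without untreated replicates 1 and 3 (an alternative added after seeing the data); the cause was not tested beyond the smaller number of arrays in the last 2. Over single arrays left out the count ran from 1377 (without untreated replicate 1) to 2142. The 133 probes that differed from SDSM alone were 80 with no detection filter, 76 in the other deposited values, 3 with the 8 arrays alone, 321 with the replicate block, and 30 to 199 with single arrays left out. The 6127 that differed from EGBG alone were 5551 to 6012 with single arrays left out and kept within 1.5 times under every alternative run.

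Other settings left the main count within 1.5 times: floored signals (1920), median scaling (1731), no detection filter (1775), detection on all 8 arrays (1562), an offset of 50 (2056), trend and robust settings (2005), the replicate block (2639) and the brightest probe per gene (1774). Median scaling moved the share of higher calls from 57.9% to 92.1% against SDSM and from 46.9% to 18.2% against EGBG. Of the 154 named genes 0 changed direction past the threshold under these settings. Calls were lost for 25 under median scaling, 39 in the other table, 39 with the 8 arrays alone and 45 without untreated replicates 1 and 3. The 154 include genes without a call in the main fit, such as AMD1, CNFN and KRT1. The share of calls lost is therefore higher than these counts over 154. In the other deposited values 3 of the 49 cornified envelope genes rose, and many values there are at its floor. LCE2A, LCE1C, LCE3A, LCE3C and IVL differed by 0 there, as did LGALS7, LGALS7B, KLK13, ASPRV1, CYP4F22, LIPK, HSPA6, HSPB8, EGLN3, EGR3 and CARD17P. Yet IVL was detected on all arrays of both groups, at main means of 9.77 untreated and 10.47 in the combination. The deposited tables thus conflict on these genes, and the cause was not tested. Same-numbered arrays of the combination and day 6 deviated from their group means with correlations of -0.10, 0.24, 0.52 and 0.13. Differently numbered ones gave -0.49 to 0.41. Whether the numbers pair these groups is not settled by these values, and the main fit has no block. With the block 10 of the 39 oxidative phosphorylation genes fell in place of 4, and 5 of the 27 polyamine genes in place of 3. Likewise 3 of the 16 cholesterol genes fell in place of 1, and STC2 passed (limma, adjusted p 0.0397). The beadchip as a block was not run, since the headers used here name no slide. Genes undetected on all arrays of a group have only bounds, those detected on 1 to 3 arrays, such as TCHHL1, IFI44 and IFIT1, have differences that rest partly on values at background, and genes near the top of the scale may be compressed. Genes undetected throughout the combination or throughout day 6 passed the detection filter through the other group alone, so their direction followed from it.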
